A study of Homo sapiens with 9 samples.

Results

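The BCL2 family genes described here are 10 genes that set whether a lymphoma cell survives or dies by the mitochondrial route: the survival genes BCL2, BCL2L1 and MCL1, the BH3-only death genes BCL2L11, BMF, HRK, BBC3 and PMAIP1, and the effector genes BAX and BAK1. They were taken by symbol from a fixed list, each matched to 1 of the 58243 gene identifiers in the count files, and all 10 were found and passed the filter on low counts. The study measured RNA by bulk sequencing in DOHH2, an established human B-cell line from a transformed follicular lymphoma. Its 3 groups, of 3 libraries each, were cultured cells sampled when the graft was made (day 0), cells sorted at day 19 from femurs of RAGγc mice that had received the graft, and cells sorted likewise at day 40. RAGγc mice are immunodeficient hosts that lack lymphocytes but keep myeloid and red cells, and the labels name no edited gene and no drug in any group. Femur cells were recovered by flushing and enzyme digestion of bone, bead depletion of mouse CD45 and Ter119 cells and sorting of human CD20 cells. Culture cells are not described as having gone through these steps, so handling and marrow growth cannot be told apart in any comparison with day 0.

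Members of this family meet at the outer membrane of the mitochondrion. BAX and BAK1 form the pores that release cytochrome c, the survival proteins hold them in check, and the BH3-only proteins set the effectors free by filling the groove of the survival proteins with a short helix, the BH3 domain. The BH3-only genes differ in which survival protein they bind: HRK prefers BCL-XL, the product of BCL2L1, PMAIP1 prefers MCL1, and BCL2L11 and BBC3 bind all of them. In follicular lymphoma BCL2 is typically driven by a translocation that joins it to the immunoglobulin heavy chain locus, and DOHH2 carries that translocation.

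The BH3 helix is what the 10 genes share, so the bases that encode it are shown for each. A search of 1 coding transcript per gene for the 6 residues Leu, any 3 residues, Gly or Ala, and Asp found exactly 1 match in each, and the stretches run 5′ to 3′ from 5 codons before that core to 5 codons after it. Capitals mark the 18 bases of the core.
BCL2: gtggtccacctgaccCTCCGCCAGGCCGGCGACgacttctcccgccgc
BCL2L1: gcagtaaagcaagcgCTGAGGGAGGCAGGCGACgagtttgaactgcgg
MCL1: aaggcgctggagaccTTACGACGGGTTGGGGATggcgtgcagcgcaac
BCL2L11: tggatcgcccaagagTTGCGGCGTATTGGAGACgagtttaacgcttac
BMF: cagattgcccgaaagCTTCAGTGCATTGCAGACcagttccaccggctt
HRK: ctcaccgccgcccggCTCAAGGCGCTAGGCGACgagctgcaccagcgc
BBC3: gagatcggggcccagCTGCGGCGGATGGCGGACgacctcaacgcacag
PMAIP1: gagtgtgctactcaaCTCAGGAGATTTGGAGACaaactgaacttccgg
BAX: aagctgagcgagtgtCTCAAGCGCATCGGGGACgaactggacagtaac
BAK1: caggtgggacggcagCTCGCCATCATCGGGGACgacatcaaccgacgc
These stretches come from GENCODE release 29 transcripts on GRCh38. Base by base, BCL2L11 and BBC3 were the most alike pair, with 29 of 48 bases identical, and MCL1 and PMAIP1 the least, with 15 of 48. BMF and HRK, whose transcripts moved furthest and in opposite directions, shared 24 of 48. The encoded proteins ranged from 54 residues for PMAIP1 to 350 for MCL1.

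Libraries held 21071239 to 29456271 counts, so even the least abundant member reading, BMF in 1 day 19 library, rested on 139 counts. Correlations of log2 CPM between libraries of a group lay between 0.987 and 0.993. All 9 B lymphoma markers were detected in every group, with a summed level of 3078 to 3331 CPM at day 19, 3600 to 3846 CPM at day 40 and 4785 to 5939 CPM in culture. Markers of other cell types, all of them human genes, stayed low. They do not measure mouse cells carried over from the femur, because how mouse reads were treated is not given. The summed level of 6 T and NK cell markers reached at most 5.01 CPM, that of 7 myeloid markers 5.94 CPM, that of 5 erythroid markers 0.164 CPM and that of 5 endothelial markers 7.60 CPM. The 9 stromal markers summed to 4.97 to 7.54 CPM at day 19 and 4.34 to 5.29 CPM at day 40. In culture they summed to 1.16 to 1.44 CPM. Most of the femur sum came from PDGFRB, at means of 5.17 and 3.44 CPM, against 0.0445 CPM in culture. COL1A1 averaged 0.677 CPM at day 40, against 0.0695 CPM in culture, with libraries that overlapped. LEPR averaged 0.866 and 0.799 CPM, against 0.967 CPM in culture, and DCN was at 0 in every femur library. The part of such RNA in the values below was not tested. S100A8, S100A9, HBB, COL1A2, COL3A1, LUM, POSTN, CXCL12, CDH5 and KDR were at 0 in every library. The plasma cell list summed to 530 to 617 CPM at day 19, 681 to 782 CPM at day 40 and 1081 to 1520 CPM in culture. Most of that sum came from JCHAIN, at means of 469, 631 and 1116 CPM in the same order. JCHAIN, XBP1 and TNFRSF17 were lower in every femur library than in any culture library. SDC1 and PRDM1 went the other way, at low levels. SDC1 averaged 0.474 CPM at day 19 and 0.323 CPM at day 40, and was at 0 in culture. PRDM1 averaged 0.537 CPM at day 19, against 0.213 CPM in culture, and its log2 fold change at day 40 was 2.15. No label ties a library to a culture or an animal, so p-values measure only the spread between these libraries, which may be technical in part. By the dates in the titles the gap between a period's culture library and its day 40 library was 11, 26 and 39 days, so the first and the second of them cannot descend from that culture.

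Set against culture, 8 of the 10 genes changed at day 19, 5 upward (BCL2, MCL1, BCL2L11, HRK and PMAIP1) and 3 downward (BMF, BBC3 and BAX). Here and below a gene is called changed when its adjusted p is under 0.05 in edgeR's two-sided quasi-likelihood test over all 15163 tested genes. Of all genes 52.8% were called at day 19, 26.3% higher and 26.5% lower. A count of 8 in 10 lies above that share, but in a comparison where most genes moved. The members were chosen with earlier results of these data known, so their counts beside such shares are descriptions only. At day 40, 6 of 10 were called against culture (BCL2, MCL1, BCL2L11 and HRK higher, BMF and BAX lower), where 46.6% of all genes were called, 23.3% higher and 23.3% lower. Between the femur groups 2 of 10 were called (BBC3 higher and HRK lower at day 40; BMF is added, as higher, in the fit blocked by sampling period, adjusted p = 0.0363), where 4.68% of all genes were called, 3.23% higher and 1.45% lower. Libraries did not overlap for 8 members at day 19 and 7 at day 40 against culture and for 4 between the femur groups, where the share of all genes was 61.5%, 54.8% and 26.6%. The typical size of change was near that of all genes: the median absolute log2 fold change of the members was 0.46 at day 19 and 0.33 at day 40 against culture, beside 0.39 and 0.33 over all genes tested. The called members, 8 at day 19 and 6 at day 40, were all among those whose libraries did not overlap culture. Their sign within each of the 3 sampling periods was fixed by that separation and adds nothing to it. Scaling by total library size alone moved the median of all genes to a log2 value of 0.10 at both days, and all genes then split into 4155 higher and 2650 lower at day 40, beside 3527 and 3538 with the scaling used here. Both comparisons with culture share the same 3 culture libraries and are not independent of each other.

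**Figure D1:**
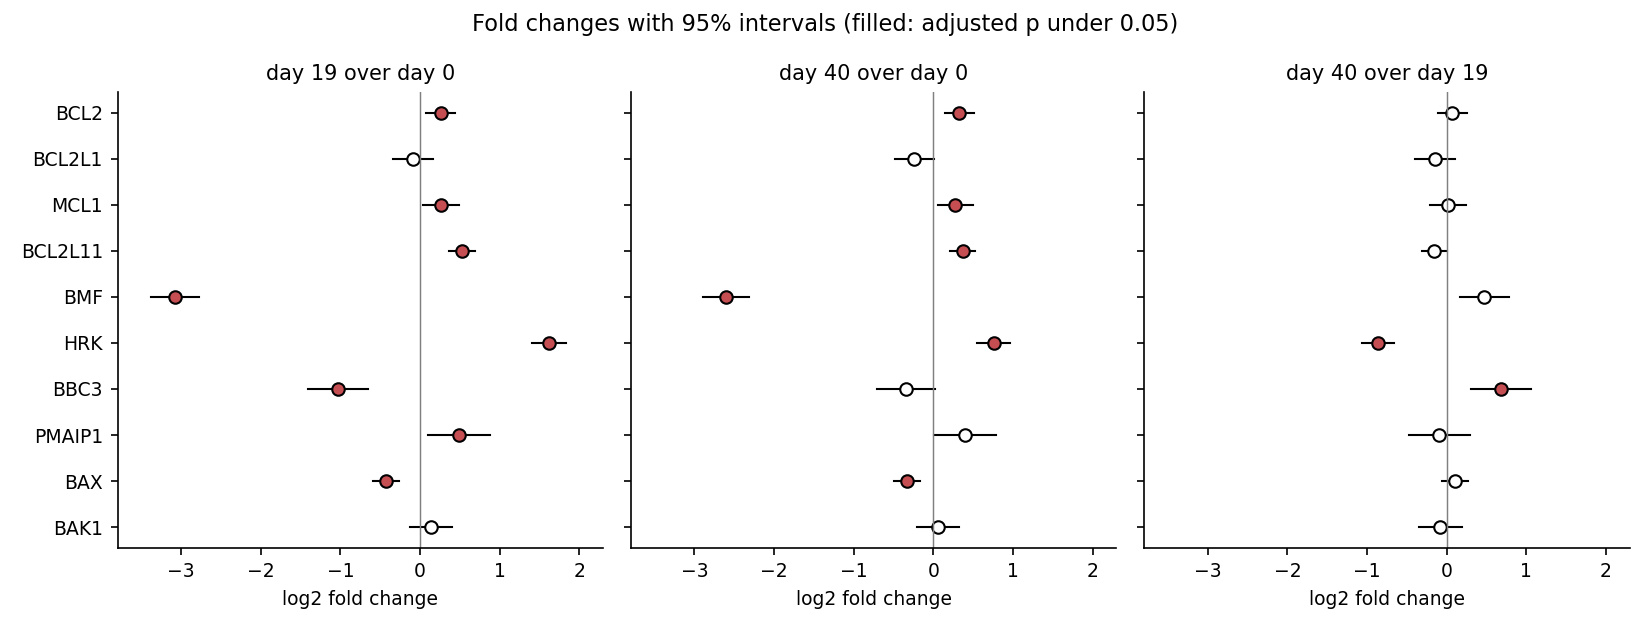
Log2 fold change (horizontal axis) of each of the 10 genes (rows) for day 19 over day 0, day 40 over day 0 and day 40 over day 19, with 95% intervals from the edgeR fit; filled points have an adjusted p under 0.05. BMF lies far to the left of 0 in both comparisons with culture (-3.08 and -2.61), HRK lies to the right (1.62 and 0.76), and the next largest change against culture is that of BBC3 at day 19 (-1.03).

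Among the survival genes BCL2 and MCL1 were modestly higher in the femur, while BCL2L1 was not called in any comparison. BCL2 (chromosome 18, 63123346 to 63320128, hg38) had 319, 307 and 302 CPM (counts scaled to library size) at day 19 and 305, 334 and 334 CPM at day 40, against 285, 240.2 and 251 CPM in culture. Every femur library lay above every culture library, and the femur groups overlapped each other. The fold change was 1.20 at day 19 (log2 0.26, SE 0.07, adjusted p = 0.0115) and 1.25 at day 40 (log2 0.33, SE 0.07, adjusted p = 0.0036), and both calls held under all 17 alternatives. The interval of the day 40 over day 19 log2 difference ran from -0.11 to 0.25. In bulk RNA a change in the share of cells with a transcript and a change in its amount per cell cannot be told apart, which holds for every gene below.

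MCL1 (chromosome 1, 150574551 to 150579738), a short-lived survival protein on which many B-cell tumours depend, had 290, 254 and 274 CPM at day 19 and 320, 243 and 266 CPM at day 40, against 234, 222 and 228 CPM in culture. The femur groups did not overlap with culture, and day 40 replicate 1 was the highest of all 9 libraries. MCL1 was called at day 19 (log2 fold change 0.26, SE 0.09, adjusted p = 0.0308) and at day 40 (0.28, SE 0.09, adjusted p = 0.0256). The day 19 call was lost without day 0 replicate 1, 2 or 3 (adjusted p = 0.052, 0.0611 and 0.0704) and without day 19 replicate 1 or 3 (adjusted p = 0.113 and 0.0721). The day 40 call was lost without day 0 replicate 2 or 3 (adjusted p = 0.0543 and 0.0596) and without day 40 replicate 1, which brought the log2 fold change to 0.15 (adjusted p = 0.138). That library also stood apart for heat shock genes, picked out after the values were seen: HSPA1B was at 250.3 CPM in it, against 13.6 and 30.4 CPM in the other day 40 libraries, and DNAJB1 at 617 CPM, against 85.8 and 122 CPM. Their part in the MCL1 value was not tested.

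BCL2L1 (chromosome 20, 31664452 to 31723989), which encodes the survival protein BCL-XL, was the least abundant survival gene. It had 18.6, 19.5 and 20.6 CPM at day 19 and 15.7, 20.05 and 17.2 CPM at day 40, against 20.2, 21.7 and 20.5 CPM in culture. All day 40 libraries lay just below the culture libraries, and the day 19 libraries overlapped them. Its log2 fold change was -0.09 at day 19 (95% interval -0.34 to 0.16, adjusted p = 0.478) and -0.24 at day 40 (-0.49 to 0.01, adjusted p = 0.0732). The day 40 value passed without day 40 replicate 2 (log2 -0.35, adjusted p = 0.0165). ABALON, on the opposite strand, shares 1424 exon bases with BCL2L1 and had 18 to 31 counts per library, so BCL2L1 counts are uncertain where the exons overlap.

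**Figure D2:**
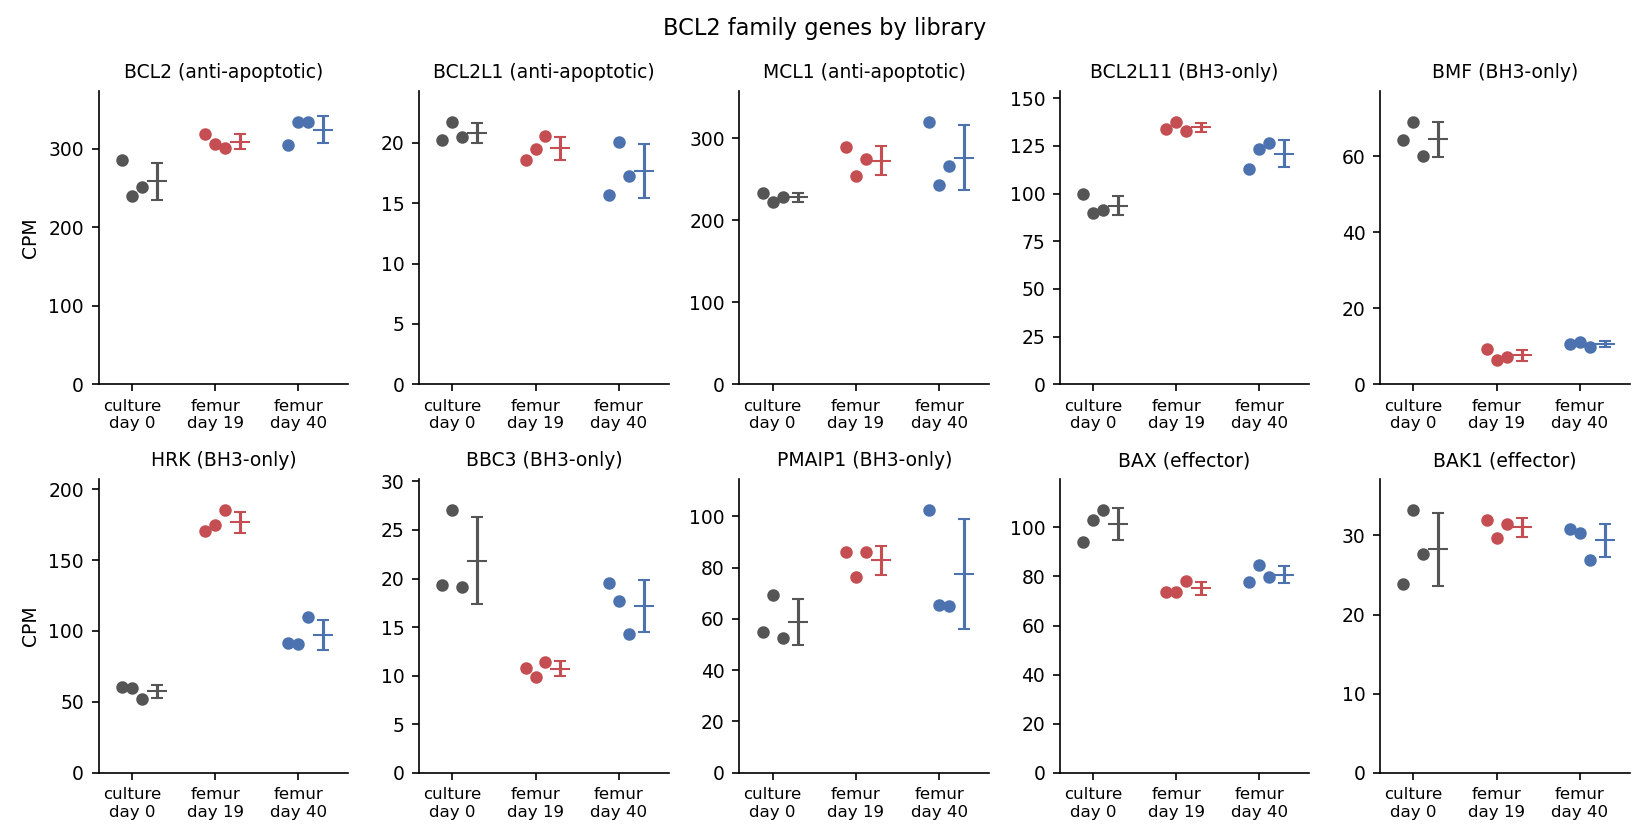
CPM (vertical axis, starting at 0 in each panel) of the 10 genes in each of the 9 libraries, as points, with the mean and SD of the 3 libraries beside them, for culture day 0, femur day 19 and femur day 40. BMF lies near the bottom of its panel in both femur groups (means 7.62 and 10.6 CPM), below a culture mean of 64.5 CPM, HRK peaks at day 19 at 177 CPM, and BBC3 is lowest at day 19 at 10.7 CPM.

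BMF showed the largest change of the family. This BH3-only gene (chromosome 15, 40087890 to 40108892), whose protein is held on the cytoskeleton until stress or loss of attachment releases it, had 9.28, 6.47 and 7.10 CPM at day 19 and 10.7, 11.2 and 9.75 CPM at day 40, against 64.3, 69.1 and 60.0 CPM in culture. Every femur library lay far below every culture library, by log2 differences of -2.78, -3.40 and -3.07 within the 3 sampling periods at day 19. The ratio to culture was 0.118 at day 19 (log2 -3.08, SE 0.12, adjusted p = 3.27e-09) and 0.164 at day 40 (log2 -2.61, SE 0.12, adjusted p = 1.43e-08), and both calls held under all 17 alternatives. Ordered by fold change, BMF stood at place 62 from the bottom of 15163 genes at day 19 and at place 43 at day 40. Day 40 libraries were above the day 19 libraries with no overlap (log2 0.47, 95% interval 0.16 to 0.79), yet the difference missed the threshold (adjusted p = 0.0549). It passed in 6 of 17 alternatives, among them the fit blocked by sampling period (adjusted p = 0.0363), the fit without day 19 replicate 1 (log2 0.64, adjusted p = 0.0128) and the fit without day 0 replicate 2 (adjusted p = 0.0364). BMF-AS1, which overlaps BMF on the opposite strand, had 0 counts in every library.

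HRK moved the other way and was called in all 3 comparisons, as was BMF in the fit blocked by sampling period. HRK (chromosome 12, 116856144 to 116881441) is a BH3-only gene best known from dying neurons and is also expressed in germinal-centre B cells. It had 171, 175 and 185 CPM at day 19 and 91.6, 90.8 and 109 CPM at day 40, against 60.1, 60.0 and 52.4 CPM in culture. The day 40 libraries lay between the other groups and overlapped neither. HRK was 3.08-fold higher at day 19 than in culture (log2 1.62, SE 0.09, adjusted p = 2.36e-08) and 1.69-fold higher at day 40 (log2 0.76, SE 0.08, adjusted p = 2.28e-05). At day 40 it was at 0.550 of its day 19 level (log2 -0.86, SE 0.08, adjusted p = 0.000152). Within each of the 3 sampling periods the day 40 library was lower than the day 19 library, by log2 differences of -0.90, -0.95 and -0.76. All 3 calls held under all 17 alternatives.

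BBC3 (chromosome 19, 47220822 to 47232766) encodes PUMA, a BH3-only protein that FOXO factors can induce, and it was low at day 19. It had 10.8, 9.87 and 11.4 CPM at day 19 and 19.6, 17.7 and 14.3 CPM at day 40, against 19.3, 27.0 and 19.1 CPM in culture. The day 40 libraries overlapped culture and lay above every day 19 library. The day 19 ratio to culture was 0.491 (log2 -1.03, SE 0.15, adjusted p = 0.000153), and this call held under all 17 alternatives. Against culture at day 40 the log2 fold change was -0.34 (95% interval -0.71 to 0.02, adjusted p = 0.0784), with values of 0.02, -0.60 and -0.42 within the 3 periods. That comparison passed without day 40 replicate 1 (adjusted p = 0.0464) or without day 0 replicate 3 (adjusted p = 0.0414). BBC3 was 1.61-fold higher at day 40 than at day 19 (log2 0.69, SE 0.15, adjusted p = 0.0244), higher within each period by 0.86, 0.84 and 0.32. This call was lost without day 19 replicate 1, 2 or 3 (adjusted p = 0.0759, 0.124 and 0.0724) and without day 40 replicate 1 or 2 (adjusted p = 0.103 and 0.0838), where the log2 difference stayed between 0.59 and 0.74.

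PMAIP1 (chromosome 18, 59899948 to 59904306), which encodes NOXA, was higher at day 19. It had 85.9, 76.2 and 86.2 CPM at day 19 and 102, 65.5 and 65.0 CPM at day 40, against 54.9, 69.1 and 52.5 CPM in culture. The day 40 libraries were spread widely and overlapped culture. The day 19 fold change was 1.41 (log2 0.49, SE 0.16, adjusted p = 0.0199), and the call was lost without day 0 replicate 1 or 3 (adjusted p = 0.0678 and 0.0772) or without day 19 replicate 1 or 3 (adjusted p = 0.059 and 0.0563). At day 40 the log2 fold change was 0.40 (adjusted p = 0.0547), with differences of 0.90, -0.08 and 0.31 within the periods. The day 40 value passed in 8 of 17 alternatives, which included the fits without day 0 replicate 2 (adjusted p = 0.0199), day 40 replicate 2 (adjusted p = 0.0321) and day 40 replicate 3 (adjusted p = 0.0267). Day 40 replicate 1, the library with the high heat shock genes, had the highest PMAIP1 of all 9, and the part of that library in the spread was not tested further.

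BCL2L11 (chromosome 2, 111119378 to 111168447), which encodes BIM, the BH3-only protein that removes self-reactive and unwanted lymphocytes, was higher in both femur groups. It had 134, 138 and 133 CPM at day 19 and 113, 123 and 127 CPM at day 40, against 99.6, 89.9 and 91.6 CPM in culture. No library of the 3 groups overlapped another group. The fold change over culture was 1.44 at day 19 (log2 0.52, SE 0.07, adjusted p = 3.55e-05) and 1.29 at day 40 (log2 0.37, SE 0.07, adjusted p = 0.000705), both held under all 17 alternatives. The day 40 over day 19 log2 difference of -0.15 was not called (adjusted p = 0.244). MIR4435-2HG shares 727 exon bases with BCL2L11 on the opposite strand and had 1 to 13 counts per library.

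Of the effector genes, BAX was lower in the femur and BAK1 was not called. BAX (chromosome 19, 48954815 to 48961798) had 73.7, 73.8 and 78.3 CPM at day 19 and 77.9, 84.7 and 79.8 CPM at day 40, against 94.2, 103 and 107 CPM in culture. All femur libraries lay below all culture libraries. Its log2 fold change was -0.43 at day 19 (SE 0.07, adjusted p = 0.000187) and -0.33 at day 40 (SE 0.07, adjusted p = 0.00166), and both calls held under all 17 alternatives. BAK1 (chromosome 6, 33572547 to 33580293) had 32.0, 29.6 and 31.5 CPM at day 19 and 30.9, 30.3 and 26.9 CPM at day 40, against 23.9, 33.2 and 27.6 CPM in culture. The culture libraries spanned the whole range of the femur values. Its log2 fold change was 0.14 at day 19 (95% interval -0.13 to 0.41, adjusted p = 0.313) and 0.06 at day 40 (adjusted p = 0.682). The day 19 value passed without day 0 replicate 2 (log2 0.26, adjusted p = 0.0333). BAK1P1, a pseudogene of BAK1, had 0 to 3 counts per library.

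Levels of different genes can be set side by side only per length, here as CPM per kilobase of annotated exon. MCL1 was the highest member in all 3 groups, with a mean of 52.1 ± 1.33 (SD, n = 3) in culture, 62.4 in the day 19 femur and 63.2 in the day 40 femur. In culture the order after MCL1 was BAX (39.2), PMAIP1 (26.3), BCL2 (22), BCL2L11 (14.1), BAK1 (12.8), BMF (11.8), HRK (8.39), BBC3 (6.86) and BCL2L1 (6.28). The libraries of PMAIP1 and BCL2 overlapped, as did those of BCL2L11 and BAK1, BAK1 and BMF, HRK and BBC3, and BBC3 and BCL2L1, so by this length these neighbours did not differ beyond their spread. At day 19 HRK, at 25.8, overlapped BCL2, at 26.3, and BMF was last at 1.4. At day 40 HRK, at 14.2, overlapped BAK1, at 13.3, and BMF was again last at 1.94. Set among 15121 tested genes with a length, BMF was above 74.1% of genes in culture, 31.0% at day 19 and 36.1% at day 40, and HRK above 66.4%, 89.2% and 78.9%. With the longest transcript as the length, BAX came before MCL1 in culture (74.7 and 58.0 CPM per kilobase), while BMF stayed last in both femur groups. By that length HRK no longer overlapped BCL2 at day 19 (means 30.5 and 41.5) or BAK1 at day 40 (16.8 and 13.3). In culture BCL2L11 then lay above BAK1, and BBC3 above HRK and BCL2L1, without overlap. PMAIP1 and BCL2 still overlapped there, as did BAK1 and BMF.

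**Figure D3:**
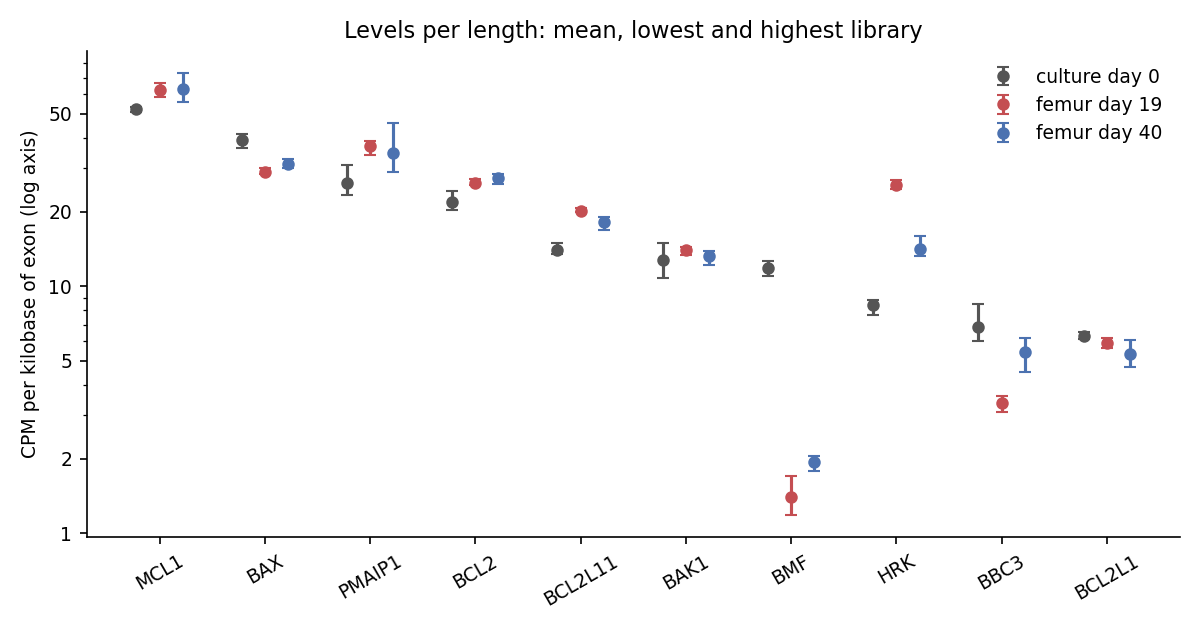
Level of each gene in CPM per kilobase of exon (vertical log axis), with genes in the order of their culture level from left to right; points are means of 3 libraries and bars reach the lowest and highest library. HRK stands above its culture level in both femur groups and reaches 25.8 at day 19, while BMF falls below every other gene, to 1.4 at day 19 and 1.94 at day 40.

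The make-up of the BH3-only transcripts differed between culture and femur. Of the summed CPM per kilobase of the 5 BH3-only genes, BMF made up 17.6% ± 0.446 in culture, 1.59% ± 0.290 in the day 19 femur and 2.63% ± 0.338 in the day 40 femur (SD, n = 3). HRK made up 12.5% ± 0.748, 29.4% ± 1.10 and 19.3% ± 3.42 in the same order of days, and BBC3 10.1% ± 1.16, 3.82% ± 0.150 and 7.26% ± 0.871. PMAIP1 was the largest part in each group, at 38.9% ± 2.39, 42.1% ± 1.63 and 46.1% ± 7.17. BCL2L11 made up 21.0% ± 2.46, 23.1% ± 1.22 and 24.7% ± 3.97, with libraries that overlapped between groups. These shares and the ratios below are descriptions without a test.

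**Figure D4:**
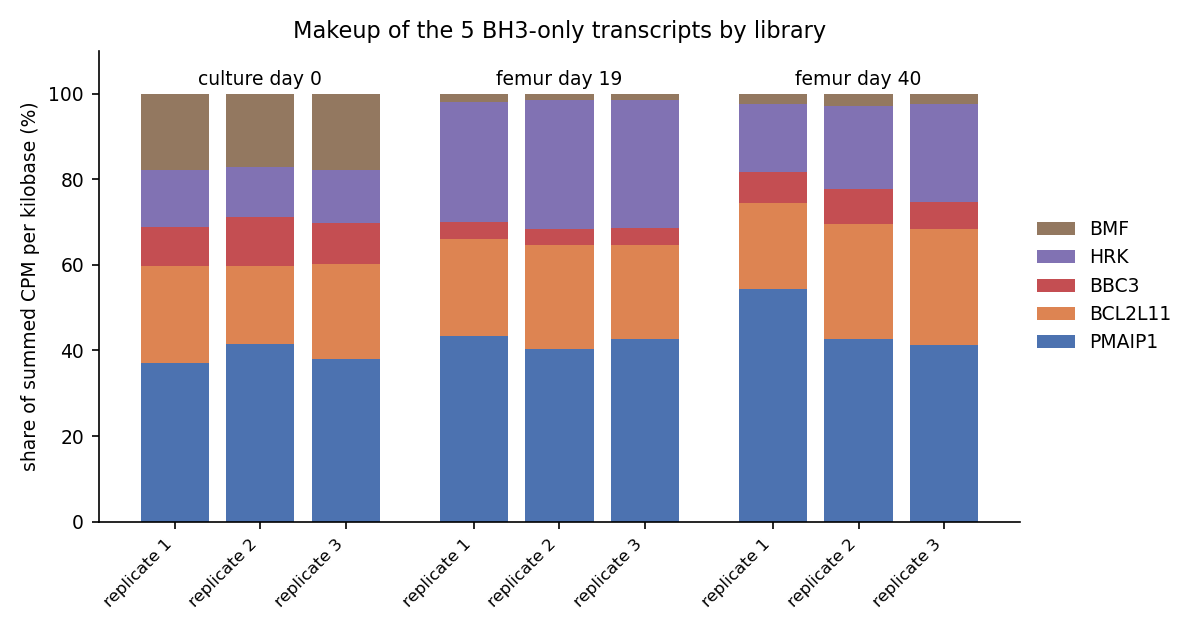
Share of the summed CPM per kilobase of the 5 BH3-only genes (vertical axis, percent) in each of the 9 libraries, stacked from PMAIP1 at the bottom to BMF at the top. BMF narrows to a thin band in all 6 femur libraries, and HRK is widest in the 3 day 19 libraries, at 28.1% to 30.2%.

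Ratios within a library do not depend on the scaling between libraries. Per kilobase of annotated exon, HRK stood at 0.916, 0.979 and 1.05 of BCL2 at day 19 and at 0.516, 0.467 and 0.562 at day 40, against 0.362, 0.429 and 0.358 in culture. With the longest transcript as the length, HRK lay below BCL2 in every day 19 library. BMF stood at 0.0627, 0.0456 and 0.0508 of BCL2 at day 19 and at 0.0760, 0.0726 and 0.0630 at day 40, against 0.487, 0.621 and 0.517 in culture. The balance of the whole set moved less than HRK or BMF did. The 5 BH3-only genes summed to 0.893, 0.939 and 0.956 of the 3 survival genes at day 19 and to 0.811, 0.763 and 0.745 at day 40, against 0.790, 0.957 and 0.776 in culture. Culture overlapped both femur groups, with day 19 only through culture replicate 2. The femur groups did not overlap each other, with every day 40 library below every day 19 library. MCL1 over BCL2 was alike in the 3 groups, with mean log2 ratios of 1.25 in culture, 1.25 at day 19 and 1.19 at day 40. Transcript ratios say nothing of protein amounts, which for MCL1, PMAIP1 and BCL2L11 are set to a large degree by protein turnover.

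Promoters are shown for BMF and HRK, which had the largest changes in the family, and for BCL2L11, because FOXO factors are known activators of it and it held the FOXO motif searched. Each window lies within the 250 bases before the RefSeq start (GRCh38.p14), without annotated exon, and runs 5′ to 3′ on the strand of the gene. Capitals mark the FOXO core GTAAACA, searched on both strands.
BCL2L11, chr2:111120664-111120913, plus strand: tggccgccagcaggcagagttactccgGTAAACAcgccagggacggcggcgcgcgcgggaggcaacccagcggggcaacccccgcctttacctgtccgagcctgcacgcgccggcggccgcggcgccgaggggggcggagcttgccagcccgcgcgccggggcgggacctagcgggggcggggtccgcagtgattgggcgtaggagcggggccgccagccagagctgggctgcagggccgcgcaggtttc
BMF, chr15:40108893-40109129, minus strand: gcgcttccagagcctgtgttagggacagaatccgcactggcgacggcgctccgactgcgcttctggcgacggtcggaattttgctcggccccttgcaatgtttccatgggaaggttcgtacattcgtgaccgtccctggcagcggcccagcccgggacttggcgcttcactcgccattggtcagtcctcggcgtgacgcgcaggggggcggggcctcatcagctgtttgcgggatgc
HRK, chr12:116881442-116881691, minus strand: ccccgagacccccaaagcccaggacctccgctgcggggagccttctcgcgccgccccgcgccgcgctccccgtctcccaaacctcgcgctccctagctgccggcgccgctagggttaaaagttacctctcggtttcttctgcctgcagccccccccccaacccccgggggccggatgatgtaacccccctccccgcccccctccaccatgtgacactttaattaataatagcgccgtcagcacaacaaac
The FOXO core was in 1 of the 9 members with an entry, BCL2L11, starting 223 bases before the start, and in 2.98% of all 35116 promoter windows. The E-box CACGTG was in 2 members, BAX with 4 copies and BBC3 with 1, and in 6.34% of all windows. The letters TGACGTCA (1.65% of windows), TTTCCCGC (1.39%) and TTCNNNGAA (6.57%) were in 0 of the 9 members. These are matches of letters in 1 short window per start and do not show binding.

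Genes whose log2 CPM followed a member most closely over the 9 libraries were searched among 9952 genes with at least 5 CPM on average. BMF was followed most closely by STARD7 (Pearson r = 0.998) and MYT1 (r = 0.997), HRK by PTPRE (0.989) and TCF3 (0.988), and BBC3 by TSPAN13 (0.982) and LINC01857 (0.979). A likeness at this level was common for BMF, with 763 genes at r of at least 0.95, against 131 for HRK and 49 for BBC3. The points share their library and fall into the 3 groups, so these values describe the shape over groups only. TCF3, which encodes the B-cell transcription factor E2A, averaged 1538 ± 43.5 CPM at day 19 and 1167 ± 85.3 CPM at day 40, against 918 ± 48.7 CPM in culture (SD, n = 3).

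Counts in the gene lists that follow are descriptions with no test of the list, and they stand beside 26.3% of all genes higher and 26.5% lower at day 19, and 23.3% higher and 23.3% lower at day 40. In the rest of the family most called genes were lower in the femur. Of 13 further BCL2 family genes 10 were tested. At day 19, 6 were lower and 0 higher (median log2 fold change -0.31, beside 0.01 over all tested genes), and at day 40, 6 were lower and 1 higher (median -0.33). The 0 is edgeR's count, beside 1 gene higher at an unadjusted p under 0.05 and 0 genes by DESeq2 or by limma voom. BNIP3L, a mitophagy receptor, averaged 28.8 ± 2.96 CPM at day 19 and 30.9 ± 2.95 CPM at day 40, against 44.6 ± 9.73 CPM in culture (log2 -0.63 and -0.53). BID, the BH3-only link from death receptors, was lower at both days (log2 -0.33 and -0.42, adjusted p = 0.00673 and 0.0019). BCL2L12 (-0.37 and -0.37) and BCL2L13 (-0.30 and -0.26) were also called lower at both days. BCL2L12 shares 734 exon bases with IRF3 on the opposite strand, which leaves its counts uncertain. BCL2A1, a survival gene induced by NF-κB, was near silent, with 0.293 ± 0.191 CPM at day 19, against 1.11 ± 0.592 CPM in culture (log2 -1.89, adjusted p = 0.00765). Its day 40 call (log2 -1.28, adjusted p = 0.0379) was lost without day 40 replicate 1, 2 or 3, without day 0 replicate 2 or without day 19 replicate 2, with adjusted p from 0.0532 to 0.182, and it was not made by DESeq2 (adjusted p = 0.0628) or limma voom (adjusted p = 0.0643). The gene called higher at day 40 was BCL2L2, named after its value was seen (log2 0.35, adjusted p = 0.0188), and that call was lost without day 40 replicate 1 or without day 0 replicate 2.

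Downstream of the pore, 8 of 18 genes of the mitochondrial machinery were lower at day 19 and 3 higher (median -0.17), and 8 were lower and 2 higher at day 40 (median -0.16). APAF1, the scaffold of the apoptosome, was lower at day 19 (log2 -0.89, adjusted p = 2.94e-05) and at day 40 (-0.51), as were AIFM1 (-0.62 and -0.50), a flavoprotein of the intermembrane space, and DFFA (-0.40 and -0.39), the inhibitor of the apoptotic nuclease. VDAC3, an outer membrane channel, was higher (0.72 and 0.45). The caspase gene CASP2, named after its value was seen, was also called higher at day 19 (0.21). Without day 19 replicate 3 the count of lower genes at day 19 was 5, and when scaled by total library size alone it was 4. Of 6 tested inhibitor of apoptosis genes, BIRC5, which encodes survivin, was lower at both days (-0.38 and -0.45), and BIRC3, an NF-κB target, was higher at day 40 (log2 1.13, adjusted p = 0.00255), at 11.8, 7.21 and 10.6 CPM, against 4.80, 5.33 and 3.41 CPM in culture.

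Of 14 tested death receptor genes, which start the other route to caspases, 4 were higher and 4 lower at day 19 (median -0.17), close to the 26.3% and 26.5% of all genes, and 7 were higher and 4 lower at day 40 (median 0.32). CASP10, an initiator caspase, had 8.88, 10.4 and 10.4 CPM at day 19 and 8.37, 6.71 and 6.19 CPM at day 40, against 0.637, 0.683 and 0.814 CPM in culture (log2 3.78 and 3.30, adjusted p = 2.25e-08 and 1.39e-07). RIPK1 was lower (-0.94 and -0.69), as was the TNF receptor gene TNFRSF1A (-0.65 and -0.38), and CYLD, a deubiquitinase, was higher (0.37 and 0.50). Also called, and named after their values were seen, were CASP8 and CFLAR, which were higher at both days, FADD and TNFRSF10A, which were lower at both, and TNFSF10, the ligand TRAIL, which was higher at day 40 (log2 0.74, adjusted p = 0.023) with libraries that overlapped culture. FAS had 1.88, 2.21 and 2.29 CPM at day 40, against 0.572, 0.698 and 0.634 CPM at day 19 (log2 1.74, adjusted p = 0.00189), and it shares 380 exon bases with ACTA2 on the opposite strand. TNFRSF1B was called at day 40 against culture (log2 2.65, adjusted p = 0.019) at under 3 CPM, and the call was lost without day 40 replicate 1 (adjusted p = 0.119) and without day 0 replicate 1 or 3 (adjusted p = 0.0563 and 0.0553), and limma voom did not make it (adjusted p = 0.0621).

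A further list held 22 genes that act on these proteins once made, through turnover, phosphorylation or anchoring. Of them 7 were lower and 2 higher at day 19 (median -0.12), where 26.5% of all genes were lower and 26.3% higher. At day 40, 10 were lower and 2 higher (median -0.15). RNF144B, a ubiquitin ligase reported to act on BAX, had 112, 102 and 96.5 CPM at day 19 and 156, 148 and 151 CPM at day 40, against 243, 286 and 250.2 CPM in culture (log2 -1.33 and -0.78). PIM1, a kinase that phosphorylates the BH3-only protein BAD, was higher (1.5 and 1.36), and DESI1 was lower (-0.45 and -0.45). PIM2, a kinase of the same family named after its values were seen, was called lower at both days (-0.56 and -0.54). FBXW7, the ligase adaptor that targets MCL1, was also called higher at both days (0.31 and 0.41) and is named after its values were seen. SKP1 (-0.44 and -0.41) and GSK3B (-0.48 and -0.41), named likewise, were called lower at both days. CUL1, also named likewise, was called lower at day 40 (-0.18).

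Transcription factors with known effects on BH3-only genes gave 7 higher and 6 lower of 22 at day 19 (median 0.04) and 7 higher and 9 lower at day 40 (median -0.08). The 9 became 5 without day 40 replicate 1 or without day 40 replicate 2, and 4 when scaled by total library size alone. FOXO1, of the FOXO family that activates BCL2L11 and BBC3, had 95, 95.9 and 91.4 CPM at day 19 and 139, 143 and 124 CPM at day 40, against 182, 156 and 177 CPM in culture (log2 -0.87 and -0.34). BCL6, a germinal-centre repressor, averaged 56 ± 2.88 CPM at day 19 and 135 ± 3.89 CPM at day 40, against 428 ± 38.1 CPM in culture. NR3C1, the glucocorticoid receptor, was lower (-0.72 and -0.53), as was STAT5B (-0.83 and -0.75). Among the factors called higher at both days, named after their values were seen, were STAT5A (0.77 and 0.83), E2F1 (0.62 and 0.34) and DDIT3 (0.86 and 0.64).

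Early genes known to rise when tissue is digested moved with the femur groups. Of 18 tested, 12 were higher and 0 lower at day 19 (median 2.06), and 14 higher and 0 lower at day 40 (median 2.27). At an unadjusted p under 0.05 edgeR gave 1 lower at day 19 and 0 at day 40. DESeq2 called 1 lower at day 19 and limma voom 0. FOSB averaged 33.7 ± 7.37 CPM at day 19 and 35.2 ± 20.3 CPM at day 40, against 2.92 ± 0.390 CPM in culture (SD, n = 3). FOS (log2 3.5 and 3.97), NR4A1 (2.10 and 2.22) and ZFP36 (0.69 and 0.97) rose as well, as did ATF3 (2.82 and 3.48). JUN was at 112 CPM in day 40 replicate 1, against 18.3 and 16.3 CPM in the other day 40 libraries. Whether PMAIP1, BCL2L11, MCL1 or any other member followed these genes during handling was not tested.

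Exons shared with a gene on the opposite strand leave the counts of further genes uncertain as well. These are APAF1, BCL2L2, BCL6, BNIP3L, CFLAR, CUL1, CYLD, DDIT3, DFFA, DNAJB1, FBXW7, JCHAIN, NR4A1, RIPK1, SKP1 and TNFRSF10A. For BCL2L2 and DDIT3 the partner had more counts over all libraries than the gene itself: PPP1R3E had 11044, beside 4697 of BCL2L2, and MARS had 49305, beside 4162 of DDIT3.

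**Figure D5:**
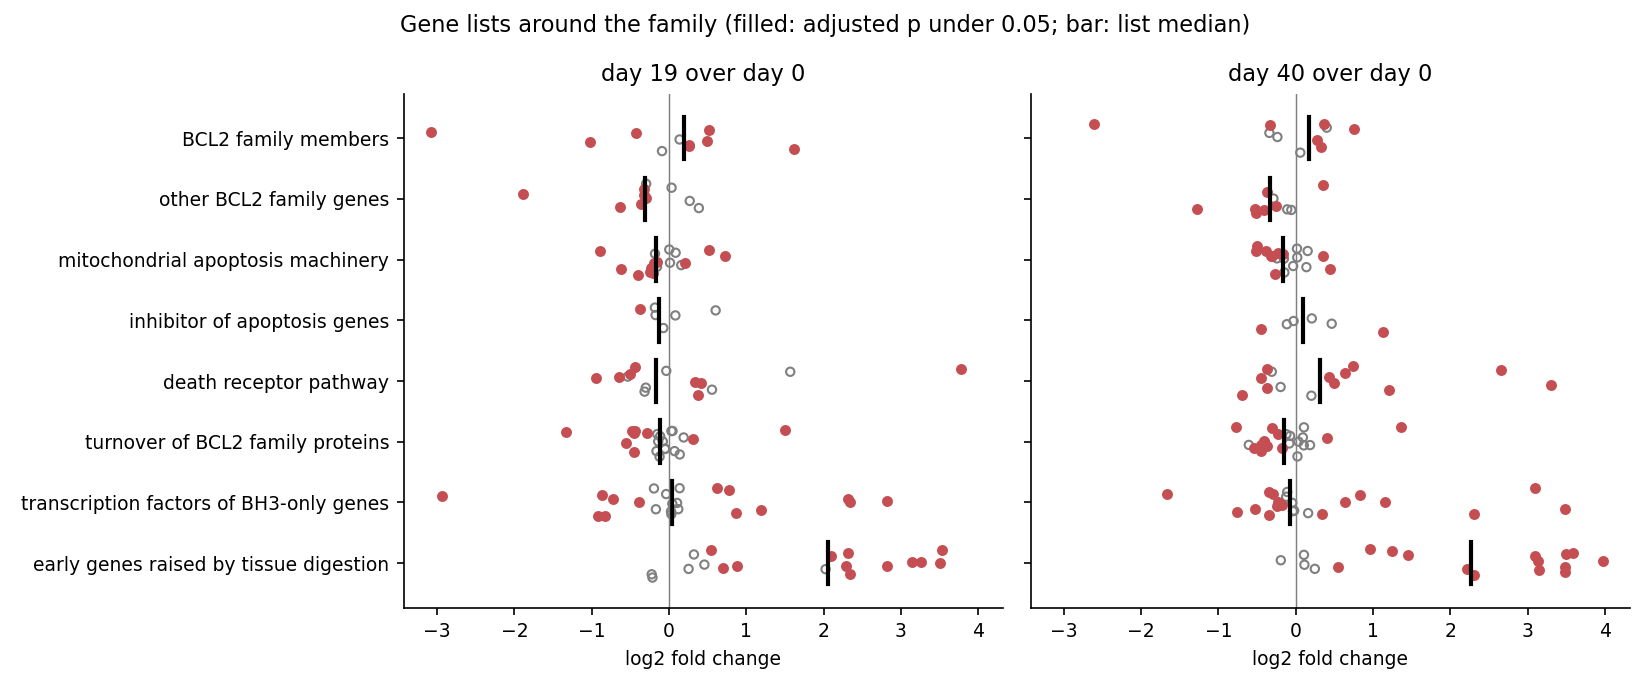
Log2 fold change (horizontal axis, the same in both panels) of every tested gene in the BCL2 family list and in 7 further lists (rows) for day 19 over day 0 and day 40 over day 0; filled points have an adjusted p under 0.05 in edgeR and black bars are list medians. The median of the BCL2 family lies near 0 with BMF far to its left, and the early gene list has medians of 2.06 and 2.27.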

How the data were processed

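In each of 9 libraries the authors deposited raw read counts for 58243 Ensembl identifiers, with no normalization. Per the submitters' processing notes, FastQC 0.11.5, STAR 2.5.2a, featureCounts 1.4.6, DESeq2 1.40.1 and hg38 were used. Not given in the sources used here are the annotation, the strand setting and how multi-mapping and mouse reads were treated, so reads of genes that overlap on opposite strands cannot be told apart. GENCODE release 29 named 57980 identifiers.

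Groups came from the day in the titles, and replicate numbers follow accession order. Testing used edgeR 4.0.16 in R 4.3.3 (filterByExpr, which left 15163 genes, TMM scaling, and the quasi-likelihood F-test in 1 fit over all 9 libraries with group as the only term). P-values are two-sided and adjusted by Benjamini-Hochberg over all tested genes. Intervals are 95% intervals of the fitted log2 fold change, and CPM values use TMM-scaled library sizes. The procedure was tested on simulated data. Alternatives were DESeq2 1.42.0, limma 3.58.1 voom, other scalings and filters, a fit of only the groups compared, sampling period as a replicate block, and leaving out each library.

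The members and lists were chosen with earlier results of these data known. Named list genes were, per list, the up to 3 called genes with the smallest adjusted p and the up to 2 with the largest change against culture, and the up to 2 with the smallest adjusted p between femur groups. Some genes and 1 list are not reported here. Genes outside this rule are said to be named after their values were seen. Deviations of libraries from the same sampling period correlated at 0.10, 0.13 and 0.31 between day 40 and day 19, at 0.03, -0.05 and 0.12 between day 19 and day 0, and at 0.08, 0.20 and 0.17 between day 40 and day 0. Only between day 40 and day 19 did every pair exceed 0.1. The main fit carried no period term, while the fit blocked by sampling period carried it for all 3 groups, culture included.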

Additional observations from a re-analysis of the deposited data

Results flagged for a closer look

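The following transcripts differed between day 40 and day 19, so that their change against culture was not the same at both days. HRK was lower at day 40 than at day 19 by a log2 value of -0.86, and BBC3 was higher by 0.69 (edgeR's quasi-likelihood test, adjusted p = 0.000152 and 0.0244). Among the genes around the family, BCL6 was higher at day 40 than at day 19 by 1.26, CDKN1A by 0.94, FAS by 1.74, FOXO1 by 0.52 and RNF144B by 0.55, while VDAC3 was lower by -0.27. Of these, VDAC3 lost its call without any 1 of the 6 femur libraries, with adjusted p from 0.0669 to 0.239, and BBC3 lost its call without any 1 of 5 of them. By contrast HRK, BCL6, FOXO1, RNF144B, CDKN1A and FAS stayed called under all 17 alternatives. FOXO1 shares 269 exon bases with LINC00598 on the same strand.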

How the results depend on the processing

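Over the 10 members and 3 comparisons, 468 of the values under alternatives kept their direction and side of the threshold, 17 lost their call, 20 gained one and 5 changed sign. The sign changes came from leaving out 1 library and were in values that were not called. BAK1 at day 40 against day 0 ranged from -0.047 to 0.18 with 1 library left out (negative without day 0 replicate 1). MCL1 at day 40 against day 19 ranged from -0.097 to 0.097 (negative without day 40 replicate 1, and -0.03 where day 19 replicate 2 was left out). PMAIP1 at day 40 against day 19 ranged from -0.34 to 0.019 (positive without day 40 replicate 3, and 0.01 where its replicate 2 was left out). Members called higher at day 19 numbered 5, and 3 to 5 with 1 library left out. Between femur groups 2 were called, and 1 to 3 with 1 library left out. Of these 1 was higher, 0 to 2 with 1 library left out, and 2 with DESeq2, with total library size, with no filter or with the replicate block. Genes called in the lists between femur groups, those of the list not reported here included, numbered 11, 25 with no filter, and 8 to 17 with 1 library left out (17 without day 0 replicate 2). With the replicate block by sampling period the members called were 5 higher and 3 lower at day 19, 5 higher and 3 lower at day 40 (PMAIP1 and BCL2L1 added), and 2 higher and 1 lower between femur groups (BMF added). The labels give no replicate numbers, and the period is read from dates. Members had 139 to 9967 counts per library, and for the less abundant ones, such as BCL2L1 and BBC3, counting error is part of the spread between libraries.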
